A study of Mus musculus with 20 samples.

Results

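The 33 genes described here belong to a stress module: 17 genes of the amino acid response, led by the transcription factor ATF4, 8 genes of the endoplasmic reticulum (ER) stress or unfolded-protein response, and 8 heat shock genes. They are a list of gene names drawn up with earlier results of these data known, and were matched by symbol to Ensembl gene IDs of mouse build GRCm38. All 33 were found among the 39179 gene IDs counted, and all 33 passed the filter on low counts.

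The series compared, by mRNA sequencing, mouse Th17 cells (IL-17-producing CD4 helper T cells) that carry or lack Il6ra, which encodes the ligand-binding chain of the IL-6 receptor. In all, 20 libraries came from C57BL/6 mice with a reporter that puts Thy1.1 on cells expressing Il17f. In the transfer part, wild-type (CD45.1) and Il6ra-/- (CD45.2) T cells were grown for 6 days with irradiated splenic antigen-presenting cells, anti-CD3, blocking antibodies to IFN-gamma and IL-4, 2.5 ng/ml of TGF-beta and 20 ng/ml of hyper-IL-6. Hyper-IL-6 is IL-6 fused to its soluble receptor, and it acts on cells without a receptor of their own. CD4+ Thy1.1+ cells were sequenced before transfer, as 2 libraries per genotype. For the colon groups, 200000 cells of each genotype were injected together into Rag1-/- mice, which lack T and B cells of their own, and after 4 weeks live CD4+ TCRbeta+ cells of each CD45 allele were sorted from the colon, as 3 libraries per genotype. Colon cells were not gated on Thy1.1, and the source labels call these libraries pools. Libraries numbered 0 belong to experiment 1, and those numbered 1 and 2 to experiment 2. The culture part held 5 groups of 2 libraries from mice labelled IL-17F/Thy1.1 Hz: naive CD4 T cells of both genotypes, Thy1.1+ wild-type cells cultured for 6 days with 2.5 ng/ml of TGF-beta and 20 ng/ml of IL-6, and Thy1.1+ wild-type and Il6ra-/- cells cultured with TGF-beta and 63 ng/ml of hyper-IL-6. The labels give 4 h of PMA and ionomycin for all 10 of these libraries, naive ones included. Since no label gives a separate animal per library, p-values here reflect only how far these libraries vary, and that variation may be technical.

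ATF4 is made when kinases that sense amino acid shortage, unfolded protein in the ER, haem deficit or double-stranded RNA phosphorylate the initiation factor eIF2alpha. Its own control is largely at translation, so its mRNA level need not follow its activity. Its known targets make serine, glycine, proline and asparagine, carry amino acids into the cell, and restrain the response. In the ER, the sensors IRE1, PERK and ATF6 raise chaperones and degradation factors when folding fails, and IRE1 splices the Xbp1 mRNA, which gene counts do not show. Heat shock factor HSF1 raises cytosolic and mitochondrial chaperones after protein damage. Activated T cells raise amino acid uptake and protein synthesis as they grow.

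Levels are given as CPM, the reads of a gene scaled to a common library size, with TMM factors within a part. Levels of the transfer and culture parts were scaled apart and are not compared. A gene passed when edgeR's quasi-likelihood test gave a Benjamini-Hochberg adjusted p under 0.05 over all genes tested (14225 for transfer, 14926 for culture). Gene reads per library ranged from 12718633 to 23745060 and from 20160774 to 46848016. Il6ra itself stood at 84.2 and 72.8 CPM in wild-type and 80.5 and 123 CPM in Il6ra-/- cells before transfer, and at 39.7 and 39.1 against 32.3 and 31.8 CPM with hyper-IL-6. In the colon it stood at 10.7, 4.31 and 5.40 against 4.85, 3.46 and 2.53 CPM, with overlap, and in naive cells at 270 and 421 against 199 and 213 CPM, without overlap. Il6ra reads were thus lower in Il6ra-/- than in wild-type cells in the naive and hyper-IL-6 groups, overlapped before transfer and in the colon, and were present in every Il6ra-/- library, so gene-level counts are not a full check of the genotype labels. The sources used here do not say which part of the gene was deleted. All 6 T cell markers (Cd3d, Cd3e, Cd3g, Cd4, Trac, Cd5) were detected in every group. In the transfer part 2 wild-type libraries stood apart: number 1 before transfer had 3.12% of its reads in ribosomal-protein genes against 1.12% in number 0, and colon number 2 had 4.28% mitochondrial reads where no other library of that part was above 2.27%. Results that rest on them are given with and without them.

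The promoter sequences below show which members carry the sequences that the 3 responses are known for. RefSeq windows of 300 bases (250 before and 50 after a start, build GRCm38.p6) were at hand for 30 of the 33 members, and both strands were searched. The ATF4 composite element TGATGNAAN was in the windows of 5 of 16 amino acid response genes (31.2%) and 2 of 8 ER genes, against 4.5% of 27025 genes. The amino acid genes were Asns, Pycr1, Chac1, Slc7a11 and Trib3, and the ER genes were Atf3 and Herpud1. The ER stress element, CCAAT and CCACG 9 bases apart, was in Hspa5 and Hsp90b1, 2 of 8 ER genes, against 0.137% of all genes. The heat shock element, searched as 3 alternating GAA and TTC units with 2 bases between them, was in 3 of 6 heat shock genes (Hspd1, Hspe1 and Hsph1) against 0.662% of all. Hspa1a, Hspa1b and Dnajb1 had no match. Only exact matches within the window were counted, so this does not show that these genes lack such an element. Hspd1 and Hspe1 share 1 stretch, since their windows overlap by 285 bases, so these are not separate matches. The XBP1 element TGACGTGG was in none of the 30 and in 0.714% of all genes. A match is a run of letters in this window, not a measured binding site.

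The following 250 bases before the start, 5′ to 3′ on the strand of the gene, are shown with the matched elements in capitals. Asns (chr6:7693210-7693459, minus strand), Pycr1 (chr11:120643749-120643998, minus) and Chac1 (chr2:119350992-119351241, plus) show the ATF4 composite, 23, 103 and 194 bases before the start. Hspa5 (chr2:34771840-34772089, plus) and Hsp90b1 (chr10:86705445-86705694, minus) show the ER stress element, 1 copy in Hspa5 and 2 in Hsp90b1. Hspe1 (chr1:55087898-55088147, plus) shows the heat shock element it shares with Hspd1.
Asns: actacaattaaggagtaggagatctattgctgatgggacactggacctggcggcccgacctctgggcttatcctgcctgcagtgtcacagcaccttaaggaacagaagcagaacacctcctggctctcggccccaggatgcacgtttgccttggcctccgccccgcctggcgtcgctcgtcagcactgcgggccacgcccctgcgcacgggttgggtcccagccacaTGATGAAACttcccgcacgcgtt
Pycr1: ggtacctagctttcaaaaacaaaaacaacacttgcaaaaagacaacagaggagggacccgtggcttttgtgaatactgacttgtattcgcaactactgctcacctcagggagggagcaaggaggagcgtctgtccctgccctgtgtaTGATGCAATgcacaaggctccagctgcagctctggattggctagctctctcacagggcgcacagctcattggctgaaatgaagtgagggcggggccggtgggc
Chac1: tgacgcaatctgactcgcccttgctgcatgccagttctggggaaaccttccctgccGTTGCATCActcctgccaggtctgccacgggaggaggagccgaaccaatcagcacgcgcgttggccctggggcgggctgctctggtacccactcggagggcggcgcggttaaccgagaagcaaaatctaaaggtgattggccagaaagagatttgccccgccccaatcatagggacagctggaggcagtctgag
Hspa5: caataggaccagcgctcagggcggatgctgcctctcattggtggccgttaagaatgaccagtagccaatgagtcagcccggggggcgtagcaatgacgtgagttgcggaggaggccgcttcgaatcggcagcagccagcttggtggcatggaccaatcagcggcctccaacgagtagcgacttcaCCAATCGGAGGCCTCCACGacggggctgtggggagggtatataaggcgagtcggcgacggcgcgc
Hsp90b1: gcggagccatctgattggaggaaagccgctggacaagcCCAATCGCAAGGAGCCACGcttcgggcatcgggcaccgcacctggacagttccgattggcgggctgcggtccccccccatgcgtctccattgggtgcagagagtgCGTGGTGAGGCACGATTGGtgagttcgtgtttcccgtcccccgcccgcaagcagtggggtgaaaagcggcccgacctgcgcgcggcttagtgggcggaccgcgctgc
Hspe1: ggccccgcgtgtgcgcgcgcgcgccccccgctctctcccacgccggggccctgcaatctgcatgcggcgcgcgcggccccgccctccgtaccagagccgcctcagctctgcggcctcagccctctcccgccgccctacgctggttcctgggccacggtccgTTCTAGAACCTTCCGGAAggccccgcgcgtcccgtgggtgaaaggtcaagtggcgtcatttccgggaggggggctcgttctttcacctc

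Hspa1a and Hspa1b, the inducible HSP70 genes, are neighbouring copies, and their windows are identical at 296 of 300 positions. In the next pair, Hspa1a (chr17:34972157-34972406, minus) and Hspa1b (chr17:34959239-34959488, minus), capitals mark the 3 positions of these 250 bases that differ between them. Reads that match both copies could be lost or split between them, so their separate counts are uncertain, as are those of Hspa8, Hspd1, Hspe1 and Psat1, which have processed pseudogenes.
Hspa1a: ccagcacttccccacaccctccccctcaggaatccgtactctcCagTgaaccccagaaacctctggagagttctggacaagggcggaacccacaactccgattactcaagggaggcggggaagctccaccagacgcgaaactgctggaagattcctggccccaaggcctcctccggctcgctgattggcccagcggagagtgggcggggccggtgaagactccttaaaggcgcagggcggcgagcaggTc
Hspa1b: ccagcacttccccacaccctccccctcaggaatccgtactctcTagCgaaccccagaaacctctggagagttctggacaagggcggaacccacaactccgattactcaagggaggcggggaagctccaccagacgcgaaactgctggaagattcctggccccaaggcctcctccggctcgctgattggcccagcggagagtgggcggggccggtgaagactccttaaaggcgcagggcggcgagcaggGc

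The first question was how the module differed between cells before transfer and cells in the colon. In both genotypes Trib3, Slc7a5, Shmt2, Sesn2, Atf5 and Xbp1 fell and the inducible HSP70 genes Hspa1a and Hspa1b, the ER chaperone Hspa5 and its co-chaperone Dnajb9 rose. Of the 33 members, 4 rose and 6 fell in wild-type cells, where 17.1% of all genes tested rose and 15.8% fell (32.9% in all). In Il6ra-/- cells 5 rose and 10 fell, against 13.8% and 13.2% of all genes (27.0% in all). The share of members that passed was thus near that of all genes in wild-type cells (30.3%) and above it in Il6ra-/- cells (45.5%). All 4 that rose in wild-type cells (Hspa5, Dnajb9, Hspa1a, Hspa1b) and all 6 that fell (Shmt2, Trib3, Sesn2, Slc7a5, Atf5, Xbp1) also passed in the same direction in Il6ra-/- cells. The difference between the genotypes' changes was tested as an interaction. It was passed by 0 members in edgeR (0% of all genes), with 0 at an unadjusted p under 0.05 and 0 in DESeq2 (0.0914% of all genes). Of all 14225 genes tested, 377 were at an unadjusted p under 0.05 in edgeR.

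The amino acid response held most of the genes that fell: 5 of 17 in wild-type and 9 of 17 in Il6ra-/- cells, with none that rose. The median log2 change over the 17 was -0.72 and -0.95, beside -0.02 and -0.002 over all genes tested. Atf4 itself did not pass. Its levels before transfer were 241 and 344 CPM in wild-type and 264 and 316 CPM in Il6ra-/- cells. In the colon they were 272, 361 and 269 CPM in wild-type and 279.5, 397 and 417 CPM in Il6ra-/- cells, so the groups overlapped. Per kilobase of gene model, Atf4 had the highest level of the 17 in all 9 groups of the series.

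Trib3, a pseudokinase that feeds back on ATF4, had the lowest fitted ratio among those that fell in wild-type cells. Its wild-type levels were 4.98 and 13.2 CPM before transfer and 0.984, 1.56 and 0.692 CPM in the colon. Its Il6ra-/- levels were 6.99 and 20.2 CPM before and 1.56, 1.98 and 1.51 CPM in the colon. The ranges did not overlap in either genotype, and experiment 2 was the higher before transfer in both. Trib3 fell by 3.04 ± 0.567 (SE) on the log2 scale in wild-type (adjusted p = 0.00275) and by 3.01 ± 0.560 in Il6ra-/- cells (adjusted p = 0.00288). Atf5, a transcription factor related to ATF4, was likewise higher before transfer in experiment 2, at 25.8 against 10.1 CPM in wild-type and 47.5 against 15.5 CPM in Il6ra-/- cells. In the colon it lay between 5.26 and 8.46 CPM and between 7.05 and 9.03 CPM. Its change was -1.40 ± 0.480 (adjusted p = 0.0447) and -1.99 ± 0.480 (adjusted p = 0.0114), and neither call held without the before-transfer library of experiment 2 (adjusted p = 0.442 and 0.187). The wild-type call was also lost without any 1 of the colon libraries (adjusted p = 0.0942, 0.0653 and 0.1198).

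Slc7a5, the transport subunit of the large neutral amino acid carrier LAT1, stood at 45.2 and 43.9 CPM in wild-type cells before transfer and at 18.1, 29.7 and 18.6 CPM in the colon. In Il6ra-/- cells it stood at 83.8 and 84.8 CPM before and at 21.6, 36.1 and 36.8 CPM in the colon. Every colon library was below every before-transfer library of its genotype. Slc7a5 fell by 1.0 ± 0.279 on the log2 scale in wild-type (adjusted p = 0.0192) and by 1.42 ± 0.277 in Il6ra-/- cells (adjusted p = 0.00378). The wild-type call was lost without colon library 0, colon library 2 or before-transfer library 1 (adjusted p = 0.0616, 0.0587 and 0.0505). Its partner chain Slc3a2 did not pass, with log2 changes of 0.53 ± 0.248 and 0.41 ± 0.247.

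In the main fit, Shmt2 fell in both genotypes among the enzymes of serine, glycine and proline synthesis. Psat1 and Pycr1 passed there in Il6ra-/- cells alone, and Phgdh, Psph and Aldh18a1 in neither genotype. Other settings also called Pycr1 lower in wild-type cells (adjusted p = 0.0299 in DESeq2 and 0.0369 with the experiment term). Wild-type Psat1 passed with no filter (adjusted p = 0.042). Psph passed in wild-type cells with DESeq2 (adjusted p = 0.0374) and in Il6ra-/- cells with compared groups only (adjusted p = 0.0432). Shmt2, which makes glycine in mitochondria, stood at 113 and 103 CPM before transfer and 56.8, 66.6 and 63.5 CPM in the colon of wild-type cells, and at 177 and 105 against 49.6, 60.7 and 65.3 CPM in Il6ra-/- cells. The groups did not overlap, and Shmt2 fell by 0.79 ± 0.230 (adjusted p = 0.0231) and 1.27 ± 0.230 (adjusted p = 0.00249) on the log2 scale. Its wild-type call was lost without any 1 of the colon libraries or before-transfer library 0 (adjusted p from 0.0520 to 0.0699). Sesn2, which signals leucine shortage to mTORC1, fell by 1.2 ± 0.263 (adjusted p = 0.00696) and 1.02 ± 0.262 (adjusted p = 0.0151). It did not pass in wild-type cells without before-transfer library 1 (adjusted p = 0.0501), nor in Il6ra-/- cells without before-transfer library 1 or colon library 0 or 2 (adjusted p = 0.0746, 0.0511 and 0.0615). Psat1, of serine synthesis, fell in Il6ra-/- cells (-0.98 ± 0.317, adjusted p = 0.0414) and had -0.79 ± 0.318 in wild-type cells (adjusted p = 0.0788). Without Il6ra-/- library 0 before transfer, which held 109 CPM against 51.0 CPM in library 1, the Psat1 value was -0.36 (adjusted p = 0.482), and without any 1 of the colon libraries the adjusted p was 0.0827 to 0.115. Pycr1, of proline synthesis, fell in Il6ra-/- cells from 3.61 and 5.30 CPM to 0.578, 0 and 0.205 CPM (adjusted p = 0.0156) and had an adjusted p of 0.0629 in wild-type cells. Without before-transfer library 1 or colon library 2 the Il6ra-/- call was lost (adjusted p = 0.0631 and 0.0622). Chac1, which breaks down glutathione, had 23 and 36 reads before transfer and 0, 1 and 0 in the colon of Il6ra-/- cells (adjusted p = 0.00885), and 7 and 11 against 3, 0 and 1 in wild-type cells (adjusted p = 0.123).

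Asparagine synthetase, Asns, stood at 17.01 and 17.7 CPM before transfer and at 6.53, 10.6 and 9.92 CPM in the colon of Il6ra-/- cells, without overlap. It fell there by 0.95 ± 0.246 on the log2 scale (adjusted p = 0.0161), but not without before-transfer library 1 or colon library 0 (adjusted p = 0.0597 and 0.0580). In wild-type cells it went from 27.8 and 32.7 CPM to 21.0, 25.5 and 24.2 CPM, a change of -0.36 ± 0.243 (adjusted p = 0.267). The other amino acid genes, Phgdh, Psph, Mthfd2, Ddit3, Slc7a11 and Aldh18a1, passed in neither genotype in the main fit. DESeq2 called Slc7a11 higher in wild-type colon cells (2.195, adjusted p = 0.0391). Within experiment 1 its log2 ratio was 0.29 in wild-type and -1.61 in Il6ra-/- cells, against 3.30 and 3.67 in experiment 2. Ddit3, the death-linked factor CHOP, again followed the experiment before transfer, at 15.03 and 47.5 CPM in wild-type and 14.1 and 56.2 CPM in Il6ra-/- cells, and lay between 18.7 and 26.3 CPM in the 6 colon libraries.

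**Figure D1:**
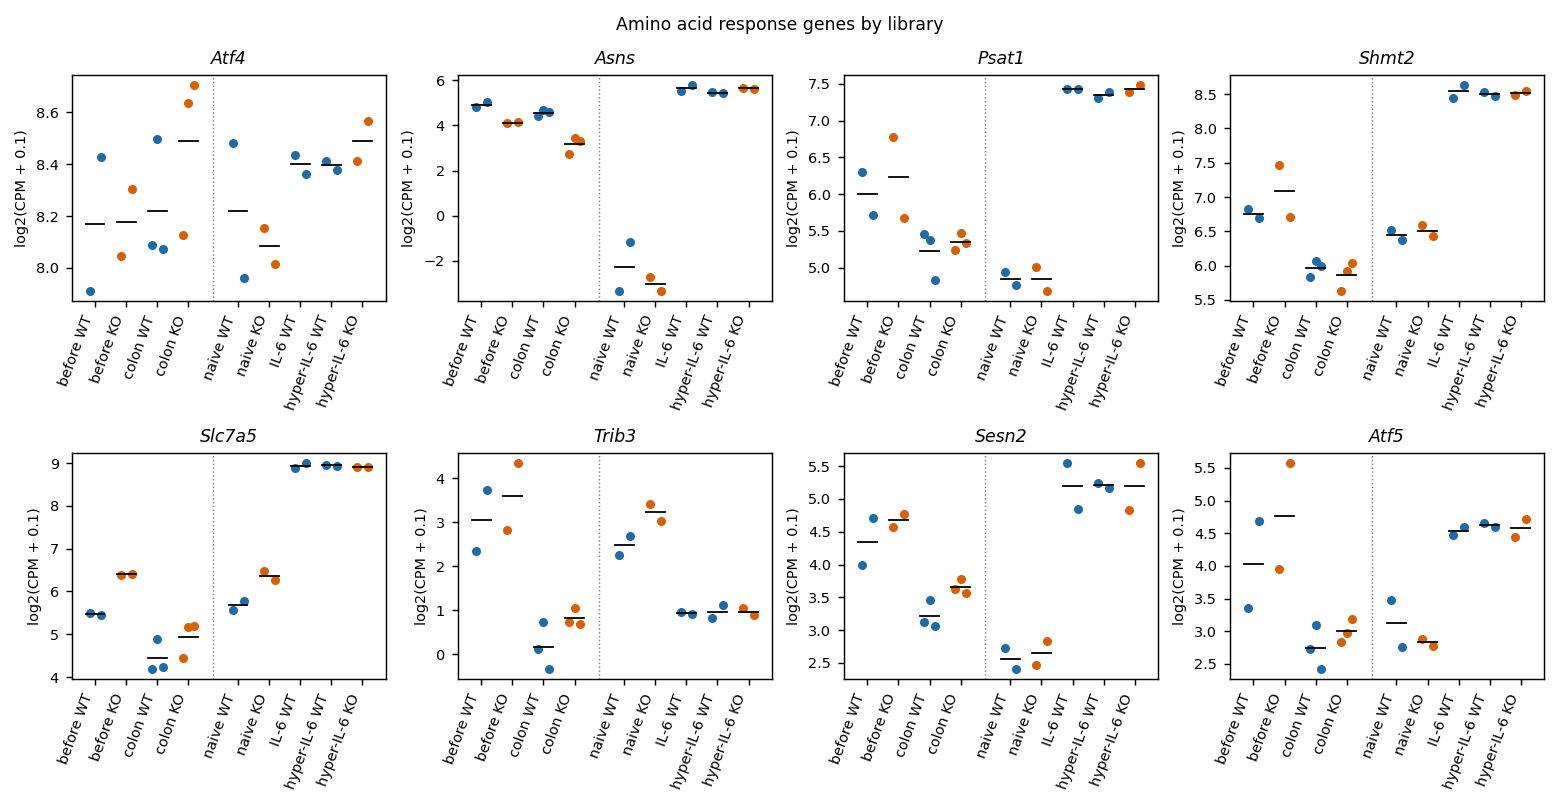
Levels of 8 amino acid response genes in each library, as log2 of CPM plus 0.1 on an axis of its own per gene. Points are libraries (blue wild-type, orange Il6ra-/-), bars are group means and the dotted line separates the 2 parts, which were scaled apart. Trib3, Sesn2 and Slc7a5 lie lower in colon than before transfer in both genotypes, and Asns is lower in Il6ra-/- than in wild-type cells in the transfer part.

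Of the 8 ER genes, Hspa5 and Dnajb9 rose and Xbp1 fell in both genotypes. Hspa5, the chaperone BiP that holds the ER sensors inactive, stood at 657 and 503 CPM before transfer and at 896, 1201 and 1084 CPM in the colon of wild-type cells. The Il6ra-/- levels were 634 and 488 CPM before and 799, 1274 and 1128 CPM in the colon. The groups did not overlap, and Hspa5 rose by 0.87 ± 0.263 (adjusted p = 0.0277) and 0.93 ± 0.263 (adjusted p = 0.0241) on the log2 scale. With the replicate number as a block the adjusted p was 0.0675 and 0.0621, so these 2 calls were lost (28.1% and 24.1% of all genes passed with the block), and within experiment 1 the log2 ratios were 0.45 and 0.33 against 1.2 and 1.3 in experiment 2. Leaving out 1 library ended the wild-type call for before-transfer library 1 and colon libraries 1 and 2 (adjusted p from 0.0727 to 0.135), and the Il6ra-/- call for all but colon library 0 (adjusted p from 0.0545 to 0.146).

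Dnajb9, a BiP co-chaperone that helps to clear misfolded ER protein, stood at 15.6 and 13.9 CPM before transfer and 36.5, 81.7 and 91.1 CPM in the colon of wild-type cells. The Il6ra-/- libraries held 16.3 and 18.3 CPM before and 34.5, 76.7 and 75.4 CPM in the colon. The colon libraries of experiment 2 were the higher in both genotypes. Dnajb9 rose by 2.24 ± 0.438 (adjusted p = 0.00358) and 1.84 ± 0.429 (adjusted p = 0.00957) on the log2 scale. The Il6ra-/- call was lost without before-transfer library 0 or 1 (adjusted p = 0.0771 and 0.0512).

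Xbp1 encodes the transcription factor whose mRNA IRE1 splices. It stood at 253 and 297 CPM before transfer and at 132, 125 and 106 CPM in the colon of wild-type cells. The Il6ra-/- libraries held 253 and 266 CPM before and 122, 119.6 and 120.3 CPM in the colon. Xbp1 fell by 1.19 ± 0.172 (adjusted p = 0.000633) and 1.10 ± 0.172 (adjusted p = 0.00098) on the log2 scale, and it was lower within each experiment. Its calls, like those of Trib3, Hspa1a and Hspa1b, held in both genotypes whichever single library was left out. Atf3, Herpud1, Sdf2l1, Pdia4 and Hsp90b1 did not pass in either genotype. The median change of the 8 ER genes was 0.17 and 0.03.

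**Figure D2:**
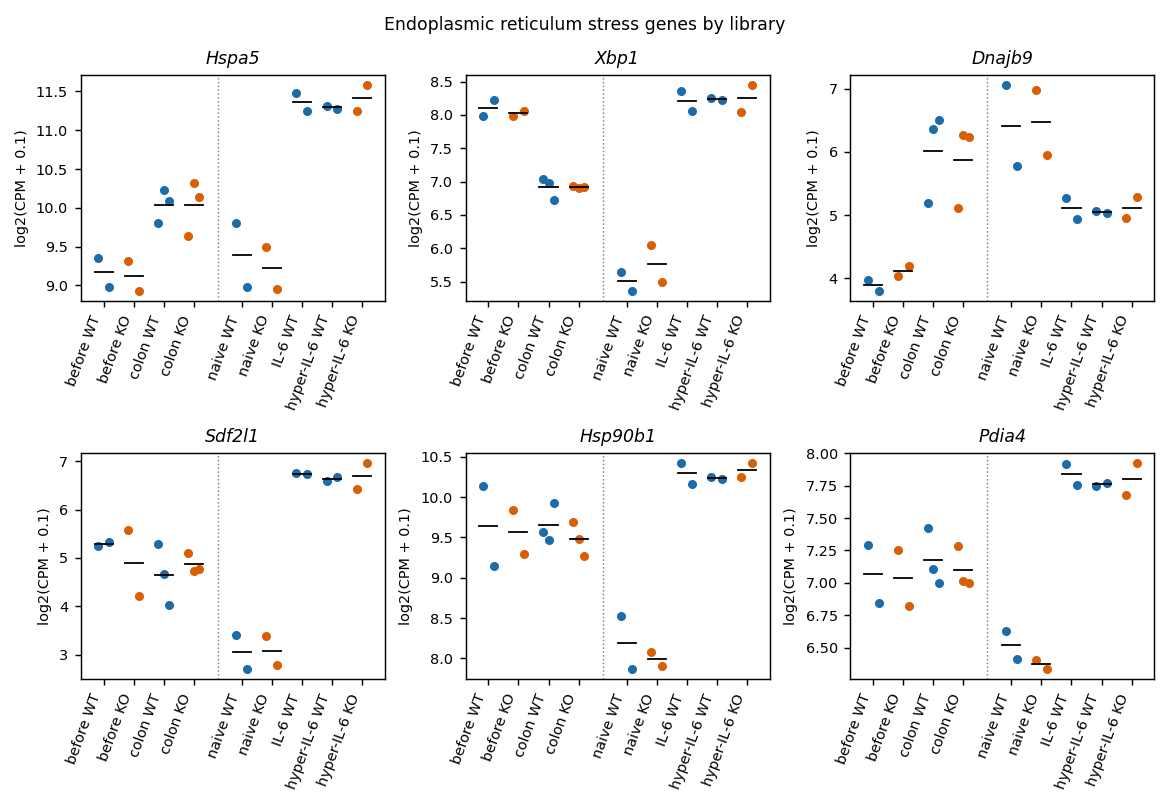
Levels of 6 ER genes in each library, drawn as for the amino acid genes (log2 of CPM plus 0.1, points are libraries, bars are means). Xbp1 falls from 253 to 297 CPM before transfer to 106 to 132 CPM in the colon, while Hspa5 and Dnajb9 are higher in the colon. In the culture part Sdf2l1, Hsp90b1 and Pdia4 are higher in cultured than in naive cells.

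Among the 8 heat shock genes, Hspa1a and Hspa1b rose most. Hspa1a stood at 5.26 and 2.13 CPM before transfer and at 41.8, 74.8 and 31.3 CPM in the colon of wild-type cells, and at 2.68 and 7.05 against 48.1, 65.3 and 50.03 CPM in Il6ra-/- cells. Hspa1b stood at 3.90 and 3.67 CPM before and at 97.4, 140.0 and 66.5 CPM in the colon of wild-type cells, and at 2.84 and 8.46 against 112, 108 and 103 CPM in Il6ra-/- cells. All 6 colon libraries lay above all 4 before-transfer libraries for both genes. Hspa1a rose by 3.73 ± 0.565 (adjusted p = 0.000829) and 3.49 ± 0.553 (adjusted p = 0.0011), and Hspa1b by 4.74 ± 0.493 (adjusted p = 7.388e-05) and 4.26 ± 0.476 (adjusted p = 0.000128), on the log2 scale. Their near-identical promoters are printed above.

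The constitutive HSP70 gene Hspa8 had the highest level per kilobase of the 8 in all 9 groups and did not pass. It stood at 377 and 338 CPM before transfer and 408, 491 and 565 CPM in the colon of wild-type cells, and at 454 and 329.5 against 380.0, 499 and 428 CPM in Il6ra-/- cells. Hspe1, the mitochondrial co-chaperonin, rose in Il6ra-/- cells (9.98 and 8.20 CPM before, 15.4, 15.6 and 18.2 CPM in the colon, log2 change 0.85 ± 0.282, adjusted p = 0.0459), and this call did not hold with the block (adjusted p = 0.0935) or without any 1 of the 5 libraries (adjusted p from 0.0838 to 0.191). In wild-type cells its change was 0.35 ± 0.277 (adjusted p = 0.343). Hsph1, Dnajb1, Hsp90aa1 and Hspd1 passed in neither genotype in the main fit. Other settings called Hsph1 higher in wild-type colon cells (adjusted p = 0.0205 in DESeq2, 0.0384 with the experiment term and 0.0108 with no filter). Against wild-type before-transfer library 1 alone, the log2 changes were 2.03 for Hsph1 and 1.94 for Hsp90aa1. Before transfer, Hsph1, Hsp90aa1 and Hspd1 were all lower in experiment 2 than in experiment 1, in both genotypes: Hspd1, the mitochondrial chaperonin, stood at 77.5 against 167 CPM in wild-type and 73.8 against 171 CPM in Il6ra-/- cells. The median change of the 8 heat shock genes was 0.54 and 0.57.

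**Figure D3:**
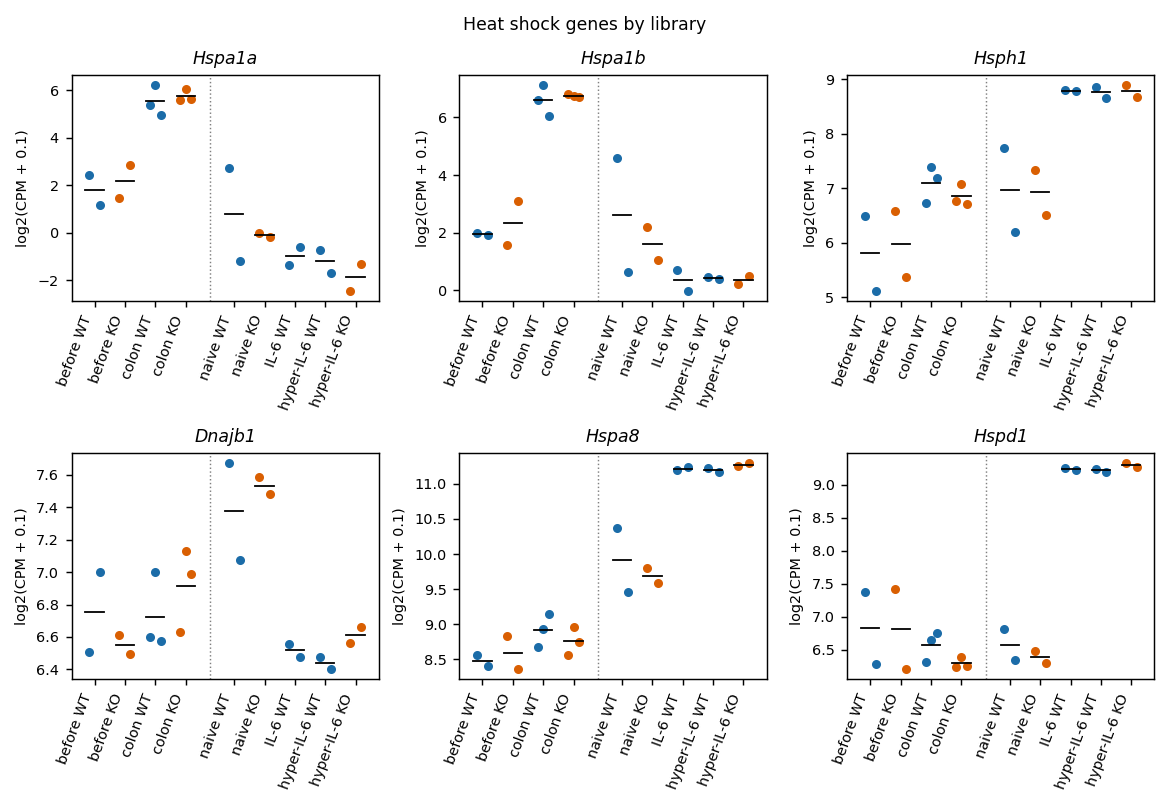
Levels of 6 heat shock genes in each library, drawn as log2 of CPM plus 0.1 with points for libraries and bars for group means. Hspa1a and Hspa1b lie above 30 CPM in all 6 colon libraries and below 10 CPM in all 4 libraries before transfer, and among naive wild-type libraries 1 stands far above the other.

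Other genes of the same pathways were read from lists of non-members. Of 27 further amino acid response genes, 2 rose and 7 fell in wild-type and 2 rose and 12 fell in Il6ra-/- cells. Vldlr, a lipoprotein receptor gene that ATF4 can raise, fell in both, from means of 99.1 to 0.322 CPM and from 24.6 to 0.231 CPM, and the amino acid carrier Slc1a4 fell by 2.37 ± 0.658 and 3.86 ± 0.682 on the log2 scale. Of 18 cytosolic tRNA synthetases, 4 and 5 fell and none rose, among them Cars (-0.92 ± 0.183 and -1.36 ± 0.183) and Dars (-0.90 ± 0.156 and -0.81 ± 0.156). Of 30 further ER genes, 3 rose and 2 fell in each genotype, shares (10.0% and 6.67%) below those of all genes (17.1% and 15.8% in wild-type, 13.8% and 13.2% in Il6ra-/- cells). Of the further amino acid genes 25.9% and 44.4% fell, above the 15.8% and 13.2% of all genes. Ern1, the gene of IRE1, rose from 29.3 to 276 CPM (3.24 ± 0.304) in wild-type and from 44.7 to 225 CPM (2.33 ± 0.290) in Il6ra-/- cells, and Dnajc3, an inhibitor of PERK, by 0.96 ± 0.183 and 0.84 ± 0.183. Of 32 further heat shock genes tested, 1 rose and 6 fell in wild-type and 2 rose and 5 fell in Il6ra-/- cells. Lonp1, a mitochondrial protease, fell by 1.23 ± 0.211 and 1.17 ± 0.212, while Serpinh1, a collagen chaperone, rose at means of at most 0.788 CPM.

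Several other measures moved with stage. Of 14 immediate-early genes, which respond to recent stimulation and to tissue handling, 7 rose and 1 fell in wild-type and 9 rose in Il6ra-/- cells, and their summed level was 1879 to 2540 CPM before transfer and 4979 to 9891 CPM in the colon. Of 12 epithelial markers 9 rose in each genotype, with sums of 33.9 to 116 CPM before and 187 to 761 CPM in the colon. Clca1 was at 0 before transfer in both genotypes, and Krt8 in Il6ra-/- cells. Of 12 myeloid markers 10 rose and 1 fell in wild-type and 8 rose in Il6ra-/- cells, from sums of 88.3 to 163 CPM to sums of 156 to 487 CPM, and of 8 stromal and endothelial markers 4 and 5 rose. Of 6 B cell and plasma cell markers tested, none rose. In wild-type cells the full list of 8 summed to 53.6 to 142 CPM before transfer and 19.4 to 35.6 CPM in the colon. In Il6ra-/- cells the sums were 81.1 to 133 CPM and 39.9 to 86.2 CPM, with overlap. Of all genes tested, 17.1% rose and 15.8% fell in wild-type cells, and 13.8% and 13.2% in Il6ra-/- cells. In bulk samples, fewer cells of a type and less RNA per cell cannot be told apart. The part of these measures, of the Thy1.1 gate and of colon isolation in the changes of the 33 genes was not tested. Reads assigned to no gene made up 18.1% to 23.6% before transfer and 27.8% to 30.8% in the colon, and their part was not tested either. Without both wild-type libraries that stand apart, 3 members passed in wild-type cells (Hspa1a and Hspa1b higher, Xbp1 lower), as against 10, where 21.3% of all genes passed. The calls lost were those of Trib3 (-1.99, adjusted p = 0.0563, against -3.04 with them), Dnajb9 (1.88, adjusted p = 0.0672), Hspa5, Sesn2, Shmt2, Slc7a5 and Atf5 (-0.47, adjusted p = 0.580).

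**Figure D4:**
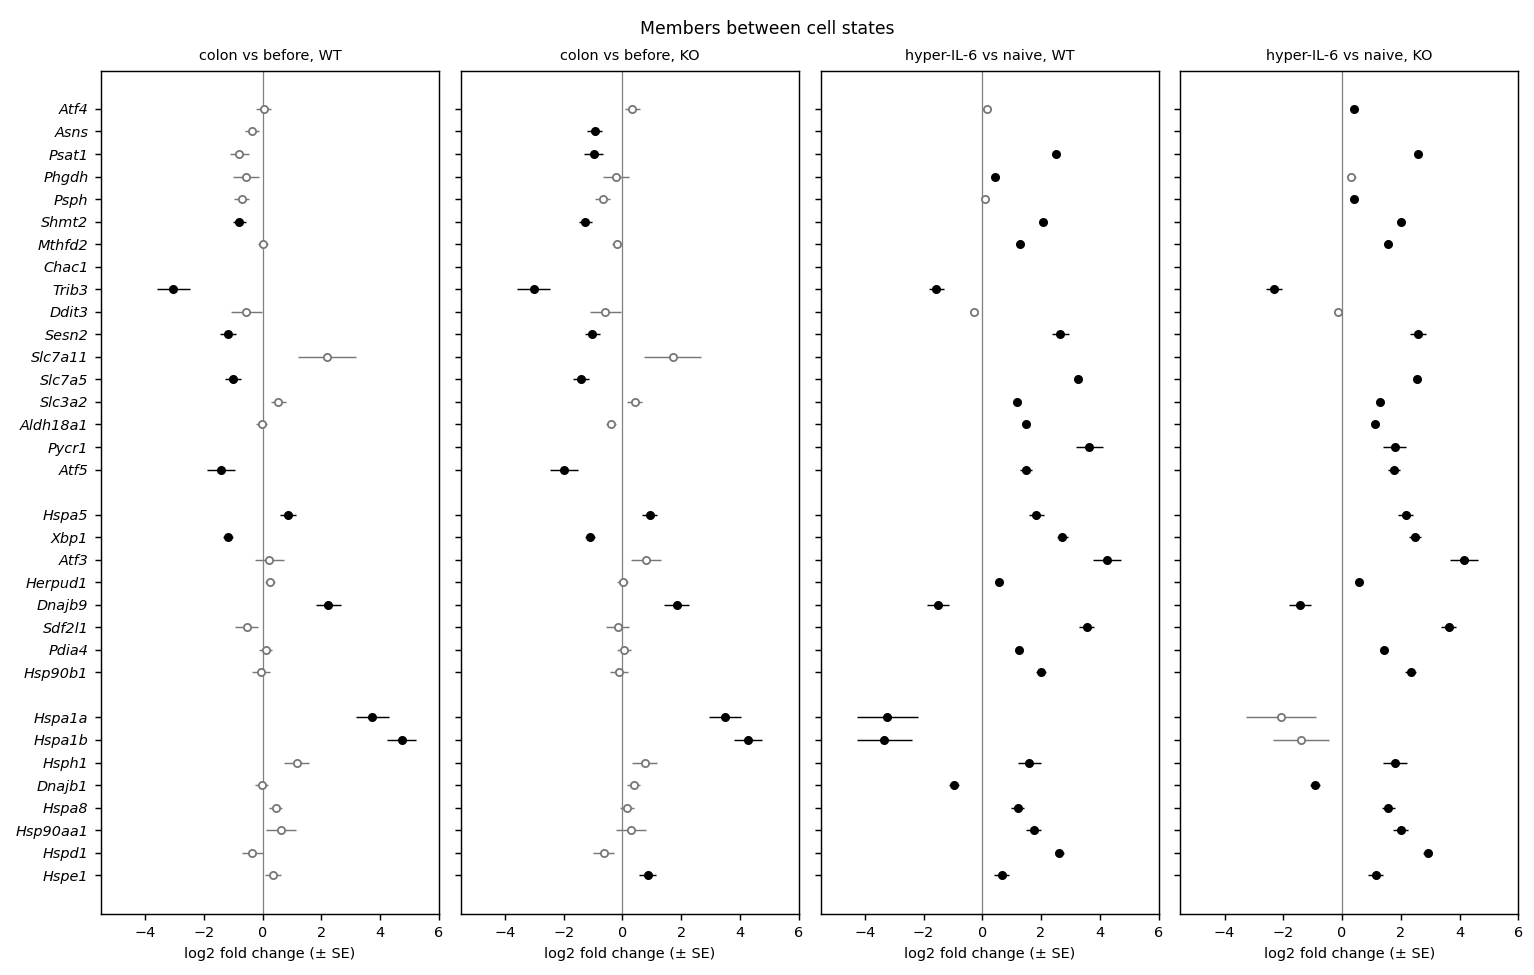
Fitted log2 changes (± SE) of the members by subgroup, for colon over before transfer and for hyper-IL-6 culture over naive cells in both genotypes. Filled points passed an adjusted p of 0.05 and open points did not, and a few members with nearly no reads in a group are left out (Chac1 and Pycr1 in the colon, Asns, Chac1 and Slc7a11 over naive cells). Amino acid genes lie mostly below 0 in the colon and above 0 in culture.

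The second comparison was between the genotypes. In the colon 0 of 33 members passed in edgeR, where 22 of all genes did (0.155%). An unadjusted p under 0.05 was held by 648 of all 14225 genes tested and by 1 member. That member was Asns (ENSMUSG00000029752, chr6:7675169-7693254, minus strand). Its levels were 21.0, 25.5 and 24.2 CPM in wild-type (23.5 ± 2.32, SD, n = 3) and 6.53, 10.6 and 9.92 CPM in Il6ra-/- colon cells (9.03 ± 2.19, SD, n = 3). Every Il6ra-/- library was below every wild-type library, and the log2 difference was -1.39 ± 0.227 (95% interval -1.89 to -0.88, adjusted p = 0.0508). With the replicate number as a block, the difference was -1.41 and the adjusted p 0.0202, and then 0.661% of all genes passed. Cells of both genotypes were injected together, but it was not shown that same-numbered libraries shared recipients. DESeq2 called Asns as its only member, with 0.935% of all genes called. With any 1 of the 6 colon libraries left out, the adjusted p was 0.107 to 0.280 and the log2 difference -1.52 to -1.20.

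Before transfer, Asns stood at 27.8 and 32.7 CPM in wild-type and 17.01 and 17.7 CPM in Il6ra-/- cells, a difference of -0.80 ± 0.270 (unadjusted p = 0.0129 and adjusted p = 0.982 in edgeR). Within experiment 1 the log2 ratio was -0.71 before transfer and -1.68 in the colon, and within experiment 2 it was -0.89 and -1.27. The change between stages in this difference was -0.58 ± 0.349 (unadjusted p = 0.125, adjusted p = 0.953 in edgeR). In hyper-IL-6 culture the order was the other way, at 44.6 and 42.6 CPM in wild-type and 50.2 and 49.0 CPM in Il6ra-/- cells, a difference of 0.18 ± 0.198 that did not pass.

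In the same before-transfer comparison 0 of 33 members passed in edgeR, 0 in DESeq2 (0.183% of all genes) and 3 had an unadjusted p under 0.05 (Asns, Slc7a5 and Aldh18a1), while 1 gene in all passed (0.00703%). Of all 14225 genes tested, 345 had an unadjusted p under 0.05 in edgeR. Slc7a5 was at 45.2 and 43.9 CPM in wild-type and 83.8 and 84.8 CPM in Il6ra-/- cells, a log2 difference of 0.92 ± 0.309 (adjusted p = 0.982). In the colon its difference was 0.50 ± 0.254 (adjusted p = 1), with overlapping groups. The heat shock and ER members differed little in the colon, with medians of -0.05 and -0.03. Hspa5, Xbp1 and Hspa1b had differences of 0.01 ± 0.229, -0.003 ± 0.156 and 0.09 ± 0.346 there. These intervals are wide at this number of libraries and do not show that the genotypes are alike. Of the further pathway genes, 0 passed in edgeR between genotypes in the colon or before transfer, with 1 and 2 at an unadjusted p under 0.05 and 1 and 0 in DESeq2. With the replicate block 1 passed in the colon, Stc2, a secreted glycoprotein gene named after its values were seen. Its mean was 22.8 CPM in Il6ra-/- and 4.63 CPM in wild-type cells (2.18 ± 0.264 with the block, adjusted p = 0.0116, and 0.530 without it).

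**Figure D5:**
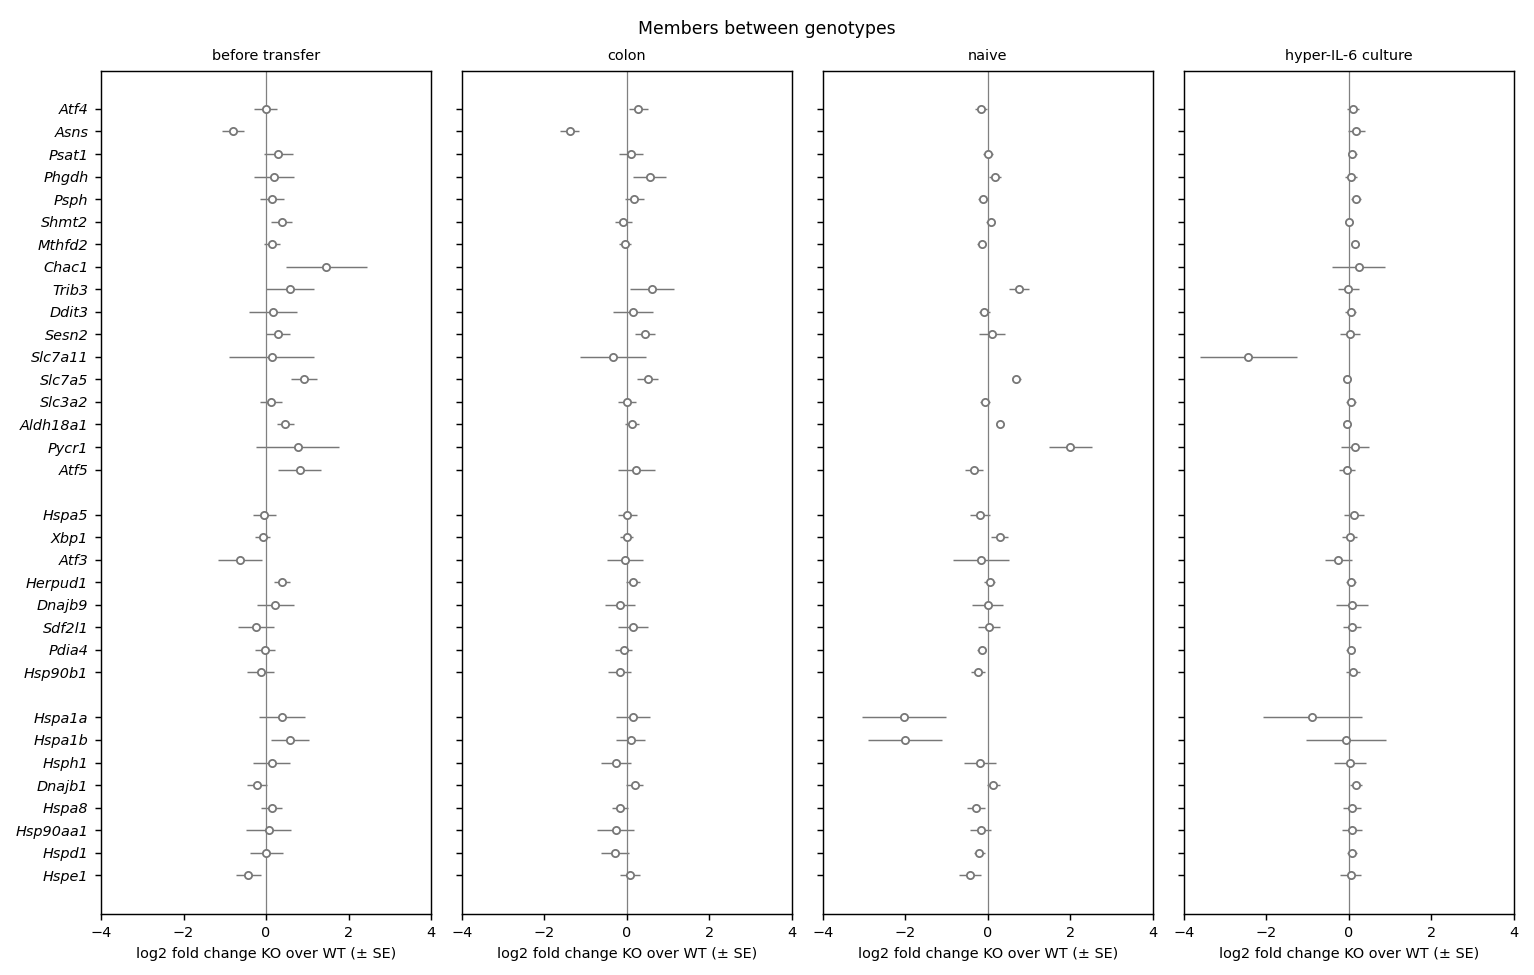
Fitted log2 differences (± SE) between Il6ra-/- and wild-type cells for the members by subgroup, before transfer, in the colon, in naive cells and in hyper-IL-6 culture. Filled points passed an adjusted p of 0.05 and open points did not. No point is filled, and members with nearly no reads in a group are left out (Chac1 and Pycr1 in the colon, Asns, Chac1 and Slc7a11 in naive cells). Asns in the colon lies at -1.39.

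The third question was how the module differed between cells grown as Th17 cells with hyper-IL-6 and naive CD4 T cells. Most members were higher in cultured cells: 25 rose and 5 fell in wild-type cells, where 36.8% of all genes rose and 33.5% fell (70.3% in all), and 25 rose and 3 fell in Il6ra-/- cells, against 37.5% and 34.4% (72.0% in all). Of those that rose, 23 passed in both genotypes. The median log2 change was 1.48 and 1.77 over the amino acid genes, 1.92 and 2.26 over the ER genes and 0.93 and 1.36 over the heat shock genes, beside 0.04 over all genes tested in both. The difference between the genotypes' changes was passed by 0 members in edgeR, with 3 at an unadjusted p under 0.05 (Slc7a5, Aldh18a1, Pycr1) and 1 in DESeq2 (Slc7a5), beside 0% and 0.342% of all genes called. Of all 14926 genes tested, 1267 were at an unadjusted p under 0.05 in edgeR.

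In the amino acid response 13 of 17 rose and 1 fell in each genotype. Asns was nearly absent from naive cells, with 0 and 8 reads in wild-type and 1 and 0 reads in Il6ra-/- libraries, and stood at 44.6 and 42.6 CPM in wild-type and 50.2 and 49.0 CPM in Il6ra-/- cultured cells. Slc7a5 stood at 47.4 and 55.0 CPM in naive and 500.1 and 489.5 CPM in cultured wild-type cells, and at 88.9 and 77.0 against 484 and 479 CPM in Il6ra-/- cells. It rose by 3.27 ± 0.113 (adjusted p = 1.906e-09) and 2.54 ± 0.109 (adjusted p = 7.133e-09) on the log2 scale. Psat1 rose by 2.51 ± 0.12 and 2.59 ± 0.12, Shmt2 by 2.06 ± 0.104 and 2.01 ± 0.104, and Sesn2 by 2.66 ± 0.290 and 2.58 ± 0.287. Chac1 had 0 reads in all 4 naive libraries, and its mean was at least 4.27-fold higher in wild-type and at least 5.09-fold higher in Il6ra-/- cultured cells, against a floor of 3 reads per naive library.

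Trib3 was the one that fell. Atf4, Psph and Ddit3 did not pass in wild-type cells, nor Phgdh, Slc7a11 and Ddit3 in Il6ra-/- cells. The wild-type Phgdh call was lost without naive library 2 or cultured library 2 (adjusted p = 0.118 and 0.147), and the Il6ra-/- Psph call without naive library 1 or cultured library 2 (adjusted p = 0.0605 and 0.0516). Trib3 stood at 4.69 and 6.31 CPM in naive and 1.67 and 2.06 CPM in cultured wild-type cells, and at 10.5 and 8.06 against 1.96 and 1.74 CPM in Il6ra-/- cells, so it fell where most of the 17 rose (-1.57 ± 0.260, adjusted p = 0.000275, and -2.32 ± 0.262, adjusted p = 1.25e-05). Atf4 stood at 357 and 249.04 CPM in naive and 341 and 332 CPM in cultured wild-type cells, with overlapping groups and a change of 0.15 ± 0.144 (adjusted p = 0.367). Without naive library 1, Atf4 was higher by 0.45 in cultured wild-type cells, against the 1 naive library left. In Il6ra-/- cells it stood at 285 and 259 against 341 and 379 CPM and rose by 0.41 ± 0.144 (adjusted p = 0.0263), a call that did not hold without naive library 2 (adjusted p = 0.142) or cultured library 2 (adjusted p = 0.121). Slc7a11, the cystine carrier, passed in wild-type cells (adjusted p = 0.0139) through 1 cultured library, which had 133 reads where the other had 5, and without it the adjusted p was 0.296 (0.0638 without naive library 1).

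Of the 8 ER genes 7 rose and 1 fell in each genotype. Hspa5 stood at 893 and 505 CPM in naive and 2554 and 2467 CPM in cultured wild-type cells, and at 724 and 497 against 2429 and 3074 CPM in Il6ra-/- cells. Hspa5 rose by 1.84 ± 0.251 (adjusted p = 5.947e-05) and 2.17 ± 0.254 (adjusted p = 1.699e-05) on the log2 scale. Xbp1 stood at 50.05 and 41.1 CPM in naive and 306 and 298 CPM in cultured wild-type cells, and at 66.1 and 44.9 against 263 and 349.7 CPM in Il6ra-/- cells, a rise of 2.73 ± 0.203 and 2.47 ± 0.201. Sdf2l1, an ER folding cofactor, rose by 3.56 ± 0.252 and 3.62 ± 0.253, and Hsp90b1, the ER HSP90, by 2.00 ± 0.184 and 2.34 ± 0.186. Dnajb9 was the one ER member that fell, from 133 and 54.4 CPM to 33.3 and 32.5 CPM in wild-type cells (-1.51 ± 0.387, adjusted p = 0.00487) and from 126 and 62.0 CPM to 30.8 and 38.8 CPM in Il6ra-/- cells (-1.43 ± 0.386, adjusted p = 0.0065). These calls were lost without naive library 1 (adjusted p = 0.0727 and 0.0933), and in Il6ra-/- cells also without cultured library 1 (adjusted p = 0.0517).

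Of the 8 heat shock genes 5 rose in each genotype: Hspd1, Hspa8, Hsph1, Hsp90aa1 and Hspe1. The wild-type call of Hspe1 was lost with RLE factors, a minimum count of 50 or the compared groups alone (adjusted p = 0.0552, 0.0542 and 0.134), and without naive library 2 or either cultured library (adjusted p from 0.0810 to 0.181). Hspd1 rose by 2.63 ± 0.140 and 2.91 ± 0.141 on the log2 scale. Hspa8 stood at 1321 and 703 CPM in naive and 2389 and 2305 CPM in cultured wild-type cells, and at 889 and 767 against 2434 and 2510.4 CPM in Il6ra-/- cells, rising by 1.21 ± 0.220 and 1.58 ± 0.222. Dnajb1, a co-chaperone of HSP70, fell by 0.97 ± 0.157 and 0.92 ± 0.157. Hspa1a stood at 6.50 and 0.339 CPM in naive wild-type and at 0.5002 and 0.211 CPM in cultured wild-type cells, and Hspa1b at 24.0 and 1.44 CPM against 1.29 and 1.21 CPM. Only naive library 1 was high. Their calls as lower in wild-type cells (adjusted p = 0.0177 and 0.00818) rest on it: without it Hspa1a was at 0.10 (adjusted p = 0.938) and Hspa1b at -0.18 (adjusted p = 0.783). They were also lost without cultured library 2 (adjusted p = 0.107 and 0.0507). In Il6ra-/- cells neither passed in the main fit. Hspa1a stood there at 0.878 and 0.782 CPM in naive and 0.0839 and 0.2996 CPM in cultured cells. These Hspa1a levels rest on 17 and 20 against 3 and 11 reads. Hspa1b stood at 4.44 and 1.96 against 1.06 and 1.31 CPM, and neither gene's groups overlapped. With the compared groups alone both were called lower (adjusted p = 0.0164 and 0.0184). The same held with no filter (adjusted p = 0.00209 and 0.000101).

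Most of the further pathway genes also rose, where 36.8% and 37.5% of all genes did. Of 26 amino acid response genes tested, 17 rose and 7 fell in wild-type and 17 rose and 8 fell in Il6ra-/- cells, with Slc1a4 higher by 5.85 ± 0.305 and 4.57 ± 0.271 on the log2 scale. Cth, of cysteine synthesis, had no reads in the 4 naive libraries and a mean of 22.1 and 29.6 CPM in cultured cells. Of 18 tRNA synthetases 16 and 18 rose, among them Iars by 2.24 ± 0.118 and 1.96 ± 0.117. Of 30 ER genes 21 rose and 5 fell in wild-type and 23 rose and 4 fell in Il6ra-/- cells. Atf6, an ER sensor, rose by 3.92 ± 0.151 and 4.06 ± 0.152, while Crebrf fell by 2.66 ± 0.181 and 3.08 ± 0.184. Of 31 heat shock genes tested 25 and 26 rose and 3 fell in each, with the chaperonin subunit Cct6a higher by 2.03 ± 0.105 and 2.18 ± 0.106.

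The naive libraries also had higher immediate-early genes. Of 14, 2 rose and 12 fell in cultured cells of each genotype. Over all genes tested, 36.8% rose and 33.5% fell in wild-type cells, and 37.5% and 34.4% in Il6ra-/- cells. The immediate-early sums were 5589 to 10195 CPM in wild-type and 6412 to 7398 CPM in Il6ra-/- naive libraries against 1235 to 1511 CPM in hyper-IL-6 culture. B cell and plasma cell markers summed to 410 to 464 CPM in naive and 8.02 to 12.8 CPM in hyper-IL-6 libraries, and stromal and endothelial markers to 245 to 311 CPM against 4.28 to 6.50 CPM. Reads assigned to no gene made up 28.2% to 31.9% in naive and 21.1% to 23.5% in hyper-IL-6 libraries. The part of these in the results above was not tested.

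The last comparisons were between conditions of the culture part that share a state. In wild-type cells, hyper-IL-6 against IL-6 gave 0 of 33 members in edgeR, 0 at an unadjusted p under 0.05 and 0 in DESeq2, where 0% and 0.0335% of all genes passed in edgeR and DESeq2. At that unadjusted p stood 226 of all 14926 genes tested. Apart from Slc7a11 (1.17 ± 1.09) and Atf3 (0.52 ± 0.331), member differences lay between -0.23 and 0.12 on the log2 scale. Il6ra-/- against wild-type cells with hyper-IL-6 also gave 0 members by edgeR, at an unadjusted p under 0.05 and by DESeq2, with 0% and 0.0201% of all genes called by edgeR and DESeq2. The unadjusted count over all 14926 genes tested was 351.

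In naive cells 0 of 33 members passed in edgeR, where 1 gene did (0.00670%), 5 had an unadjusted p under 0.05 (Slc7a5, Pycr1, Aldh18a1, Trib3 and Hspa1b) and DESeq2 called 1 (Slc7a5, with 0.636% of all genes called). Of all 14926 genes tested, 1554 had an unadjusted p under 0.05 in edgeR. Slc7a5 stood at 47.4 and 55.0 CPM in wild-type and 88.9 and 77.0 CPM in Il6ra-/- naive cells, without overlap, a log2 difference of 0.69 ± 0.106 (adjusted p = 0.0709 in edgeR, 1.919e-06 in DESeq2). With hyper-IL-6 it was at 500.1 and 489.5 against 484 and 479 CPM (-0.04 ± 0.102). The difference between these 2 genotype effects was -0.73 ± 0.147 (unadjusted p = 0.00047, adjusted p = 0.515 in edgeR). Pycr1 had 7 and 5 reads in wild-type and 32 and 16 reads in Il6ra-/- naive libraries (2.00 ± 0.522, adjusted p = 0.310). Without wild-type naive library 2, 9 members passed, 8 of them lower in Il6ra-/- cells, where 5.78% of all genes passed and 3.37% were lower, the highest adjusted p being 0.0463. That fit sets the 1 remaining wild-type library, whose Hspa1a level of 6.50 CPM is noted above, against both Il6ra-/- libraries.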

How the data were processed

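The data were 20 tables of read counts per Ensembl gene, deposited by the authors as whole numbers that were not normalised. A stranded mRNA kit was used for the transfer part, per the labels' protocols. Per the submitters' processing notes, HTSeq 0.7.2, STAR 2.5.3, R 3.4.3, DESeq2 1.18.1 and SAMtools 0.1.18 were used with GRCm38 (mm10). Annotation release and strand setting are not given in the sources used here, so genes overlapped by others or by antisense genes are uncertain. Lines naming no gene entered neither library sizes nor tests. Reads assigned to no gene were 18.1% to 31.9% of those counted as in a gene, in none or ambiguous. Symbols came from GENCODE M21 (37607 of 39179 IDs).

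Each part was fitted with edgeR 4.0.16 in R 4.3.3 (quasi-likelihood test, TMM, filterByExpr, group as factor, all groups of a part sharing 1 spread), over 11 comparisons. Alternatives were RLE factors, library size only, no filter, a minimum count of 50, DESeq2 1.42.0, the compared groups alone, a replicate block, an experiment term, leaving out both doubted libraries, and each library in turn. Members, lists and most choices were made with earlier results of these data known. Named members were Atf4, Asns, Hspa5, Xbp1, Hspa1a, Hspa1b, Hspa8 and up to 4 per subgroup, comparison and direction with the largest changes among those that passed without overlap; others are named to account for all 33 or after their values were seen. Of the pathway lists, up to 4 genes per list and comparison could be named.

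Same-numbered libraries deviated together across genes within a stage, with correlations of 0.416 before transfer and 0.632, 0.290 and 0.178 in the colon. Numbers were therefore taken as pairs between genotypes of that part. Number 0 is experiment 1 and numbers 1 and 2 are experiment 2, so these correlations alone cannot separate pairing by number from a shared experiment. They do not show that same-numbered colon libraries shared recipients. The main comparisons have group alone, and the blocked value is given beside a result whose call it changes. Across stages (-0.169 to 0.117) and in the culture part (-0.228 to 0.229, the highest between naive genotypes, with 2 libraries a group) numbers were not taken as pairs. A block on number was still fitted there, as an alternative setting and not as a matched comparison. In the transfer part number 2 occurs only in the colon. Read counts set the precision of low genes.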

Additional observations from a re-analysis of the deposited data

How the results depend on the processing

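At the level of comparisons, 126 of the recomputed counts of members passing stayed within 1.5 times the main count and 18 did not. In the colon, the count between genotypes was 1 in place of 0 (Asns lower) with library size only, no filter, the stricter filter, DESeq2, compared groups only, the replicate block and the experiment term, and 0 with RLE factors, without both doubted libraries and in each fit leaving out a library. For wild-type colon cells against cells before transfer the count was 10, 3 without both doubted libraries, 9 with the replicate block, and 6 to 11 leaving out 1 library (6 without wild-type library 1 before transfer and 6 without colon library 2). For Il6ra-/- cells it was 15, 12 with the block, and 8 to 12 leaving out 1 library (8 without library 1 before transfer). The block there ended the calls of Hspa5 in both genotypes and of Psat1 (adjusted p = 0.103) and Hspe1 in Il6ra-/- cells. The wild-type count was 14 with no filter, 14 with DESeq2, 12 with the experiment term, 11 with the stricter filter and 8 with compared groups only. The Il6ra-/- count under the same settings was 14, 15, 13, 14 and 16. For naive cells between genotypes the count was 0, 5 with no filter (Slc7a5 and Pycr1 higher, Hspa1a, Hspa1b and Hspe1 lower), 1 with DESeq2 and 0 to 9 leaving out 1 library (9 without wild-type library 2). For hyper-IL-6 culture between genotypes it was 0, and 1 (Slc7a11) with no filter. For the difference between the genotypes' changes in culture it was 0, 2 with no filter, 1 with DESeq2 and 0 to 4 leaving out 1 library (4 without naive wild-type library 2). For culture against naive cells it was 26 to 28 leaving out 1 library in both genotypes, beside 30 and 28. In each case with fewer libraries the number of samples also fell, and other causes were not tested.

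Among recomputed member values, 4336 were labelled unchanged. A call there kept its direction, and a value without a call moved by under 1 SE, whatever its sign. Of the rest, 77 lost the call, 59 gained one and 247 moved by at least 1 SE with no call. Reversal was looked for only among calls of the main fit, and 1 was found. Hspa1a in wild-type culture over naive cells was 0.10 without naive library 1, its leave-one-out values ranging from -4.155 to 0.10. Where leaving out a library left 1 in a group, that library was assumed to vary like the other groups. Library size alone shifted the median of all genes by -0.16 and -0.15 in the colon comparisons and by 0.13 and 0.14 in culture over naive, with members split 3 higher and 7 lower, 4 and 11, 25 and 5, and 26 and 3. Among members, the replicate block changed no call between genotypes other than that of Asns.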
